A study of Mus musculus with 12 samples.

Results

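Cluster 0 of the authors' deposited cell table held 9858 of the 30749 tumour T cells in that table (32.1%), and its cells were taken by the cluster number alone and joined to the UMI matrices by library and barcode. A UMI is a tag that marks 1 captured RNA molecule, so that copies made by amplification are counted once. The T cells came from MCA205 fibrosarcomas, a tumour line of which 300000 cells were grown under the skin of each C57Bl/6 mouse. Every mouse of both groups received oxaliplatin, a platinum chemotherapy, at 10 mg/kg 8 days after the injection, and 200 µg of anti-PD1, an antibody to an inhibitory receptor of T cells, 8 days later. The groups differed in a further antibody at 2.5 mg/kg, given every other day from 2 days before oxaliplatin until the day before anti-PD1. In 3 mice this was an anti-DBI antibody that neutralises acyl-CoA binding protein (ACBP, the product of Dbi), and in 3 mice it was the isotype control IgG2a. Tumours were taken 2 days after anti-PD1, CD4 and CD8 cells were sorted from them and combined in equal numbers, and 10000 cells were loaded per library. The CD8 share of a library was therefore set by the mixing.

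CD8 effector T cells recognise peptides on class I molecules and kill the presenting cell with perforin and granzymes, the products of Prf1 and the Gzm genes. Cells that descend from the same activated precursor carry the same receptor sequence, so the T cell receptor beta chain (TRB) can be read as the name of a clone. In tumours such cells range from progenitors that keep the transcription factor TCF1, the product of Tcf7, to differentiated effectors that carry inhibitory receptors such as PD-1 and TIM-3.

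The 6 marker genes that go with the label of cluster 0, a CD8 effector population, were found in differing shares of its cells. This is a description and no test of the label, because clusters of this kind are made from expression. At least 1 UMI of Cd8a or Cd8b1, the chains of the CD8 coreceptor, was found in 96.3% of cluster 0 cells. Klrd1, a killer-cell lectin receptor chain, was found in 90.0% of cells, the chemokine gene Ccl5 in 81.8%, Ly6c2, a surface antigen of memory and effector CD8 cells, in 45.3% and the granzyme gene Gzmk in 34.2%. Cluster 2, in which 81.0% of cells had a UMI of Foxp3, the transcription factor of regulatory T cells, gives the background, with a median depth of 5896 UMIs per cell against 5858 in cluster 0. There Cd8a was found in 3.96%, Cd8b1 in 12.4%, Klrd1 in 11.2%, Ly6c2 in 5.09% and Gzmk in 3.07% of cells, whereas Ccl5 was found in 45.0%. Klrd1 was more widespread in other clusters than in cluster 2, with a mean over libraries of 56.1% of cells in cluster 1 and 63.5% in cluster 7. In clusters 3 and 6, which are also CD8 clusters, it was found in 91.8 and 88.6% of cells, so it did not set cluster 0 apart from them. At least 4 of the 6 markers were found in 84.3% of cluster 0 cells and all 6 in 12.1%. Cells with Gzmk varied most between libraries, at 47.1, 39.6 and 29.6% in isotype 1, 2 and 3 and 18.1, 25.0 and 42.0% in anti-DBI 1, 2 and 3, so the groups overlapped. Within cluster 0, 4.39% of cells had a UMI of Cd4 and 1.12% of Foxp3, and 2.72% had more Cd4 than Cd8 UMIs.

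The isotype libraries 1, 2 and 3 gave 2315, 1295 and 1618 cluster 0 cells, and the anti-DBI libraries 1999, 1041 and 1590. Summed over these cells the depth ran from 6473229 to 16784916 UMIs per library. The median cell held 6614, 4461 and 4142 UMIs in isotype 1, 2 and 3 and 6155, 7106 and 6833 in anti-DBI 1, 2 and 3, so isotype 2 and 3 were the shallower libraries. Pairs of libraries shared between 15 and 63 cell barcodes among all cells of the table. Markers of other cell types were low but present, with means of 40.7 CPM for Cd74, 14.1 for H2-Ab1 and 12.4 for Itgax (antigen-presenting cells), 26.1 for Fcer1g, 15.3 for Cd68 (macrophages) and 6.76 for Ighm (B cells). CPM are a gene's UMIs per 1e+06 UMIs summed over the cells in question of a library. Ms4a1 (B cells), Adgre1 (macrophages) and Flt3 and Clec9a (dendritic cells) had no UMI in any library. Other members of these lists were low, such as H2-Aa at 0.295, Lyz2 at 0.073, Csf1r at 0.064 and Cd79a at 0.103 CPM. Itgax averaged 43.7 CPM in cluster 6, a CD8 cluster, so its UMIs cannot be assigned to antigen-presenting cells alone.

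Against all other cells of the same library, cluster 0 stood out by chemokine, CD8 and interferon-induced genes. Genes were ranked by the mean log2 ratio of CPM plus 1 among those with at least 50 CPM on the higher side and 1 sign in all 6 libraries, leaving out genes named only by a number. This is a description without a test, because clusters of this kind are made from the expression values themselves. Ccl5 averaged 4636 ± 1342 CPM in cluster 0 and 1259 ± 451 CPM in the other cells (SD, n = 6 libraries). Behind Ccl5, with a mean log2 ratio of 1.90, came Ly6c2 (1.52), Wdr95 (1.48), Cd8a (1.42), the interferon-induced gene Ifit3 (1.40), Gzmk (1.38), Cd8b1 (1.32), Cnih2 (1.31) and the receptor gene Adgrg5 (1.26). The inhibitory receptor gene Cd160 (1.25), the fractalkine receptor gene Cx3cr1 (1.21), the interferon-induced gene Ifi214 (1.19), the lectin receptor genes Klre1 (1.10) and Klrd1 (1.00), and the peptide transporter gene Abcb9 (1.09) completed the 15 highest by that rule. Each of these 15 was higher in cluster 0 in all 6 libraries.

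The genes lowest in cluster 0 against the other cells were cytokine, late granzyme, division and regulatory genes. Il2, which encodes interleukin-2, averaged 0.827 ± 0.668 CPM in cluster 0 and 107 ± 58.4 CPM elsewhere (SD, n = 6), a mean log2 ratio of -5.71. Csf2, the gene of the growth factor GM-CSF, was at -5.09 and Il13 at -4.66 on the same scale. The granzyme genes Gzmf and Gzmg were at -5.16 and -4.61, the histone genes Hist1h1b and Hist1h2ap at -4.71 and -4.66, and the cyclin gene Ccna2 at -4.37. Foxp3 (-4.70) and Penk, the gene of the opioid precursor proenkephalin (-4.66), completed the 10 lowest by that rule. Low levels of some of these were not particular to cluster 0. Il2 averaged 0.612 CPM in cluster 3 and 0.273 CPM in cluster 6, both CD8 clusters. Foxp3 was at 4.07, 7.77 and 9.56 CPM and Csf2 at 3.3, 39 and 6.5 CPM in clusters 0, 3 and 6.

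The other CD8 clusters shared several of these marker genes. Cluster 6 (1037 cells) had more Ccl5 than cluster 0, at a mean of 8086 CPM, more Ly6c2 (571 against 328 CPM) and more Gzmk (282 against 152 CPM). Cd8b1 was at 1229 CPM in cluster 6 and 1170 CPM in cluster 0, and Wdr95 at 56.15 and 55.92 CPM. Gzma, the granzyme A gene, separated these clusters in level, with 52.7 CPM in cluster 0 and 6118 CPM in cluster 6. Cluster 3 (3190 cells) averaged 10460 CPM of Gzmf and 2396 CPM of Gzmd, where cluster 0 had 60.1 and 26.7 CPM. Gzmb stood at 2759 CPM in cluster 0, 5224 in cluster 3 and 4380 in cluster 6. PD-1 (Pdcd1) was close in clusters 0 and 3, at 852 and 877 CPM, and lower in cluster 6, at 677 CPM. Its libraries ran from 612 to 740 CPM in cluster 6 and from 754 to 960 CPM in cluster 0. Granzyme genes lie close in sequence, so reads could be split among family members.

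**Figure D1:**
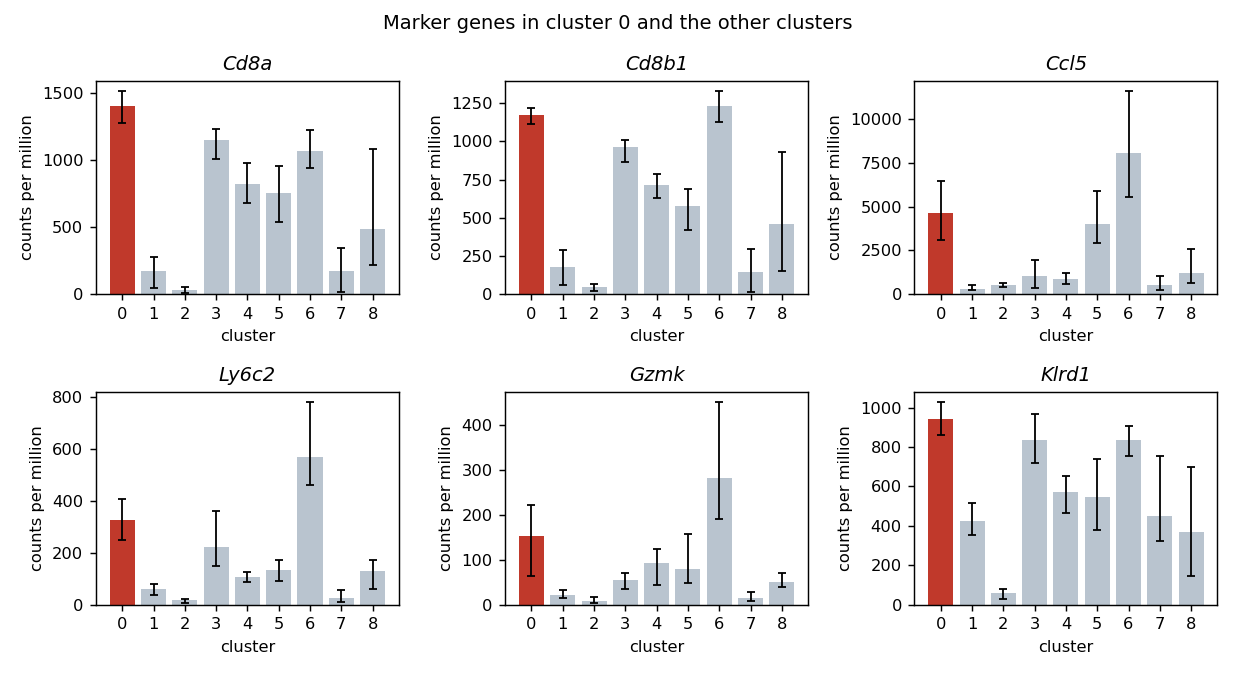
Bars give the mean CPM of 6 marker genes in each cluster (x axis), and whiskers the lowest and highest of the 6 libraries, with cluster 0 in red. Cd8a was highest in cluster 0 (1400 CPM), while Ccl5, Ly6c2 and Gzmk were higher in cluster 6.

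The receptor sequences, read from separate V(D)J libraries, showed that most cluster 0 cells belonged to large clones. Exactly 1 TRB chain was recovered in 7886 cells, none in 1614 cells and at least 2 in 358 cells. Clones were cells of a library with the same TRB V gene and CDR3 nucleotides, the stretch of the receptor that contacts the peptide, and clone size was counted over all clusters. The largest cluster 0 clone of each library is printed here from the deposited receptor table, since these sequences carry the expansion. The sequences run 5′ to 3′ over the CDR3. Lower case marks a start or end that at least 20% of distinct CDR3s of the same V or J gene share. Capitals mark the bases between these parts.
Isotype 1, TRBV19 and TRBJ1-1: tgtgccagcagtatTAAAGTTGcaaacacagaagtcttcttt
Isotype 2, TRBV5 and TRBJ2-7: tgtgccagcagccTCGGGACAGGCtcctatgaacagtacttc
Isotype 3, TRBV13-1 and TRBJ2-7: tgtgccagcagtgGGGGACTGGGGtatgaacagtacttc
Anti-DBI 1, TRBV12-2 and TRBJ2-5: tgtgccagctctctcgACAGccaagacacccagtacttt
Anti-DBI 2, TRBV12-2 and TRBJ2-5: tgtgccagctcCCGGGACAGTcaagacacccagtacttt
Anti-DBI 3, TRBV5 and TRBJ2-3: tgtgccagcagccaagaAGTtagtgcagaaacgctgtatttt
These clones held 218, 140 and 105 cluster 0 cells in isotype libraries 1, 2 and 3, and 313, 54 and 96 in anti-DBI libraries 1, 2 and 3. As a share of the cluster 0 cells with 1 TRB chain this was 12.2, 13.5 and 8.02% in isotype and 19.6, 6.32 and 7.37% in anti-DBI libraries. All cells of each clone in which 1 alpha chain was recovered carried the same alpha chain, between 58 and 503 cells per clone. The clone of anti-DBI 1 counted 612 cells in its library, of which 95 were in cluster 3 and 85 in cluster 6.

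Few receptors recurred between mice. Of 1220 distinct TRB sequences in cluster 0, 1184 were seen in 1 library, 30 in 2 and 6 in at least 3. The most widespread is shown because it was found in 5 of 6 libraries, and it holds no base outside the parts shared with other CDR3s of its V and J genes, so it is printed without capitals.
Shared TRB, listed as TRBV12-2+TRBV13-2 and TRBJ2-4: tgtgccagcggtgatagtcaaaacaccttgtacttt
It was carried by 54, 1 and 0 cluster 0 cells of isotype 1, 2 and 3 and by 5, 4 and 7 cells of anti-DBI 1, 2 and 3. A further pair is shown because each also held many cluster 0 cells, 66 and 45 over all libraries.
Shared TRB, listed as TRBV12-2+TRBV13-2 and TRBJ2-4: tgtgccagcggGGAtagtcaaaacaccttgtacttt
Shared TRB, TRBV2 and TRBJ1-1: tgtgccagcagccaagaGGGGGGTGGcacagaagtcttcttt
The former was carried by 8 and 27 cells of isotype 1 and 2 and by 31 cells of anti-DBI 1. The latter was found in anti-DBI libraries alone, with 14, 1 and 30 cells in anti-DBI 1, 2 and 3. Invariant alpha chains of innate-like T cells, TRAV11 with TRAJ18 or TRAV1 with TRAJ33, were found in 0 of 7039 cells with 1 alpha chain. Were each cell an independent draw, a share of up to 0.0426% would be allowed for each. Cells of a clone are not independent, so this limit is too tight.

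The share of cluster 0 cells in expanded clones, meaning clones of at least 5 cells, was 89.3, 88.0 and 91.3% in isotype libraries 1, 2 and 3. It was 87.1, 75.3 and 81.3% in the anti-DBI libraries. The groups did not overlap, with means of 89.6 ± 1.64% and 81.2 ± 5.92% (SD, n = 3 each; exact two-sided permutation p = 0.1, the smallest that 3 against 3 allows). Clone size grows with the number of typed cells, and the library with the lowest share, anti-DBI 2, also had the fewest typed cells (854 against 1036 to 1791 in the others). The part of this in the difference was not tested. The chance that 2 cluster 0 cells share a TRB clone, which weights large clones, was 3.90 ± 0.771% in isotype and 3.44 ± 2.28% in anti-DBI libraries (SD, n = 3; exact permutation p = 0.8). Here anti-DBI 1 was highest at 6.06% and anti-DBI 2 lowest at 1.89%, and the groups overlapped.

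A difference in expansion between cluster 0 and the other CD8 effector clusters was not resolved with 6 libraries. The mean share in expanded clones was 85.4 ± 5.99% in cluster 0, 89.4 ± 1.94% in cluster 3 and 87.9 ± 5.43% in cluster 6 (SD, n = 6 libraries). The difference to cluster 3 was -3.96 ± 5.61 percentage points (SD; exact sign-flip permutation p = 0.156, Benjamini-Hochberg adjusted over both comparisons 0.313). The difference to cluster 6 was -2.53 ± 5.65 points (SD; exact sign-flip permutation p = 0.344, adjusted 0.344). In both cases cluster 0 was lower in 4 of 6 libraries.

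The clones of cluster 0 were found again in the other clusters, with proportions closest in the CD8 clusters. The Morisita-Horn index, which is 0 when no clone is shared and 1 when clones have the same proportions, was 0.709 ± 0.116 with cluster 3 and 0.687 ± 0.161 with cluster 6 (SD, n = 6). The 2 values were not told apart at this spread (difference 0.0218; exact sign-flip permutation p = 0.719). With cluster 4, whose cells were all called outside the G1 phase, the index ran from 0.661 to 0.951. With cluster 1, in which Cd4 averaged 496 CPM, it ran from 0.0570 to 0.183, and with cluster 2 from 0.00885 to 0.0242. Of the expanded clones with cluster 0 cells, 58.3 to 80.5% also had a cell in cluster 3, 51.7 to 78.8% in cluster 4, 40.9 to 63.6% in cluster 1, 37.7 to 71.2% in cluster 5, 29.1 to 44.3% in cluster 6 and 5.50 to 14.8% in cluster 2. The share with a cell in cluster 1 was above that for cluster 6 in each library, although the index with cluster 1 was low. Such a share grows with the size of the cluster, and cluster 1 held 6971 cells against 1037 in cluster 6. The part of cluster size in these shares was not tested. Counted in cells, cluster 2 held 5.33% of the cells of cluster 0 clones in isotype 1 and 5.78% in anti-DBI 1, against 0.303 to 0.937% in the other libraries. In isotype 1 this was above the 2.56% in cluster 6.

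**Figure D2:**
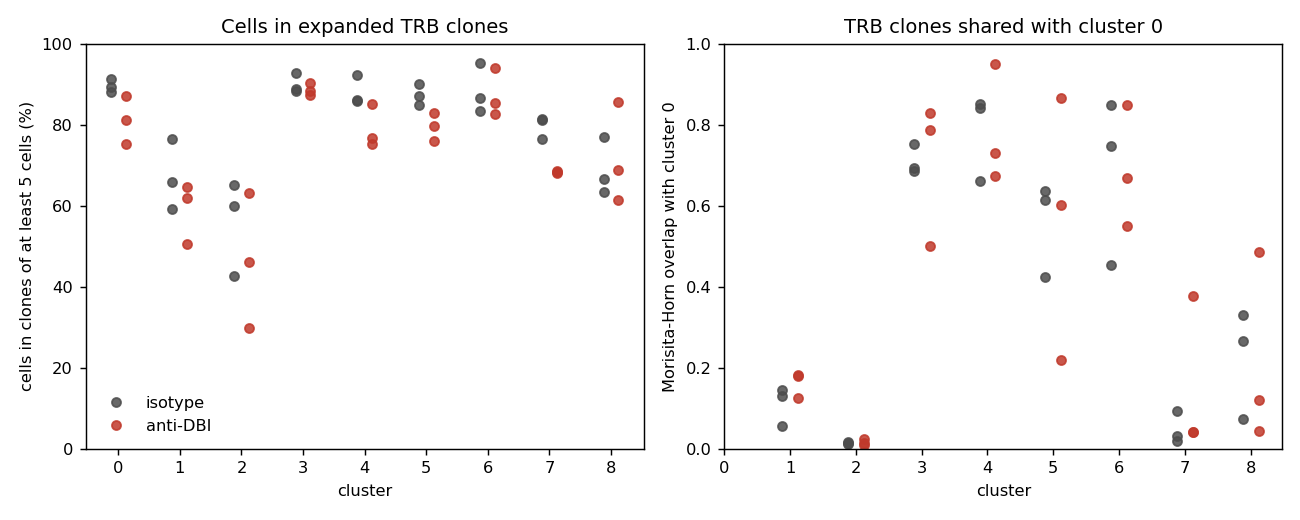
Each point is 1 library (grey isotype, red anti-DBI), with the percentage of receptor-typed cells in clones of at least 5 cells by cluster on the left and the Morisita-Horn overlap of each cluster's TRB clones with those of cluster 0 on the right. Anti-DBI 2 lay lowest in cluster 0 at 75.3%, and the index with cluster 2 was at most 0.0242.

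Within cluster 0, cells of expanded clones differed from cells whose TRB was seen once in their library. Single cells had more transcripts of 9 of 19 progenitor and memory genes, Tcf7 among them, and of 17 of 40 type I interferon genes. Expanded cells had more of 8 of 24 cytotoxic genes and of 16 of 34 genes of glycolysis and hypoxia. This comparison took 643 to 1600 expanded and 39 to 90 single cells per library, paired by library. Of 8963 genes, 394 had an edgeR adjusted p under 0.05 (4.4%), of which 189 (2.11%) were higher and 205 (2.29%) lower in expanded cells. One sign in all 6 libraries was found for 8.93% of tested genes. Median UMIs per cell were 3961 to 5565 in single and 4297 to 7106 in expanded cells, and the part of depth in these results was not tested.

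Tcf7, the gene of the progenitor transcription factor TCF1, had the smallest p. In single cells it stood at 77.7, 143 and 94.1 CPM in isotype 1, 2 and 3 and at 90.9, 130 and 61.4 CPM in anti-DBI 1, 2 and 3. In expanded cells it stood at 15.1, 13.4 and 9.53 CPM in isotype and 18.8, 24.4 and 14.0 CPM in anti-DBI libraries, which is -2.55 ± 0.17 as log2 fold change (SE; edgeR adjusted p = 5.193e-15). All single-cell values lay above all expanded values. Klf3, a transcription factor of circulating lymphocytes, fell by 1.71 on the log2 scale, and Cxcr3, a chemokine receptor for interferon-induced ligands, by 1.28. Of 19 tested progenitor and memory genes, 9 were lower in expanded cells and the list's median log2 fold change was -0.43, against 0.00 over all genes tested. The 9 included Lef1, Slamf6, Bcl2 and Ly6c2 (-0.59).

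Many interferon-induced genes were lower in expanded cells. Of 40 tested genes of the type I interferon response, 17 passed toward lower values and 23 did not pass, with a list median of -0.40. Ifi208 averaged 102 ± 22.9 CPM in single and 55.6 ± 5.93 CPM in expanded cells (SD, n = 6; log2 fold change -0.84 ± 0.13 SE), and Ifi203 (-0.65), Irf7, a transcription factor of that response (-0.47), and Oasl1 (-2.45) fell as well. Of 28 genes induced by interferon-gamma, 7 were lower, among them Socs3, an inhibitor of cytokine signalling (-1.59), Irf1 (-0.54) and Gbp2 (-0.57). The receptor genes Ifngr1 (-0.27) and Ifnar2 (-0.49) were lower too.

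More cytotoxic genes passed toward higher than toward lower values in expanded cells. Of 24 tested members, 8 rose, 1 fell and 15 did not pass, with a median of 0.24. Nkg7, a granule membrane protein, averaged 3657 ± 188 CPM in expanded and 2798 ± 447 CPM in single cells (SD, n = 6; log2 fold change 0.41 ± 0.06 SE, edgeR adjusted p = 1.841e-05). Gzmb was at 0.49 ± 0.11 (SE; edgeR adjusted p = 0.0363) and Id2, a regulator of effector differentiation, at 0.59, while Hopx fell by 0.31. Klrd1, counted with the lectin receptors, was at 0.47. Prf1 was at 1.08 ± 0.45 (SE) and did not pass (edgeR adjusted p = 0.381). Lag3 (0.79), Havcr2, the gene of TIM-3 (0.81), and Pdcd1 (0.36) were higher in expanded cells in 6 of 6 libraries and also missed the threshold (edgeR adjusted p = 0.0872, 0.0598 and 0.0610). With DESeq2, Lag3 (adjusted p = 7.25e-06) and Havcr2 (adjusted p = 0.000138) passed.

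Among 34 tested genes of glycolysis and hypoxia, 16 were higher in expanded cells and 18 did not pass, with a median of 0.38. They included Gapdh (0.46), Pkm (0.44), Aldoa (0.41) and Eno1 (0.43), enzymes of glycolysis. Among all genes of at least 10 CPM with 1 sign in all libraries, the largest increases were those of Igfbp7 (2.69), the glycine cleavage gene Gldc (2.11), the metallothionein genes Mt2 (2.04) and Mt1 (2.03), the growth factor gene Areg (1.79) and Slc17a6 (1.65). Filip1 (1.51), Adamts14 (1.49), Borcs7 (1.33) and Sdcbp2 (1.22) followed. Some of these folds rest on few molecules, because the single-cell sums held 170462 to 562286 UMIs per library. In single cells Igfbp7 averaged 1.64, Areg 2.54 and Adamts14 3.12 CPM, and Areg and Adamts14 had no UMI there in the isotype libraries. Among the 10 largest decreases were those of Pde2a (-2.73), Tcf7, Oasl1, Nsg2 (-2.33), Pou6f1 (-2.17), Dtx1 (-1.85), Slc14a1 (-1.73), Klf3 and Clec2i (-1.67). Mt1 rose from 99.4 ± 49.4 to 454 ± 145 CPM (SD, n = 6), with an edgeR adjusted p of 0.0460, and did not pass when any 1 library was left out (edgeR adjusted p = 0.084 to 0.132). Marker genes of other cells moved here too, with Ighm, an immunoglobulin gene of B cells, at 23.9 ± 22.4 CPM in single and 4.82 ± 1.66 CPM in expanded cells (higher in single cells in 5 of 6 libraries), and Cd40lg of CD4 T cells at 12.5 ± 5.61 and 4.56 ± 1.67 CPM (SD, n = 6). With only cells that had more Cd8 than Cd4 UMIs, 326 genes passed and 310 of them were among the 394.

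**Figure D3:**
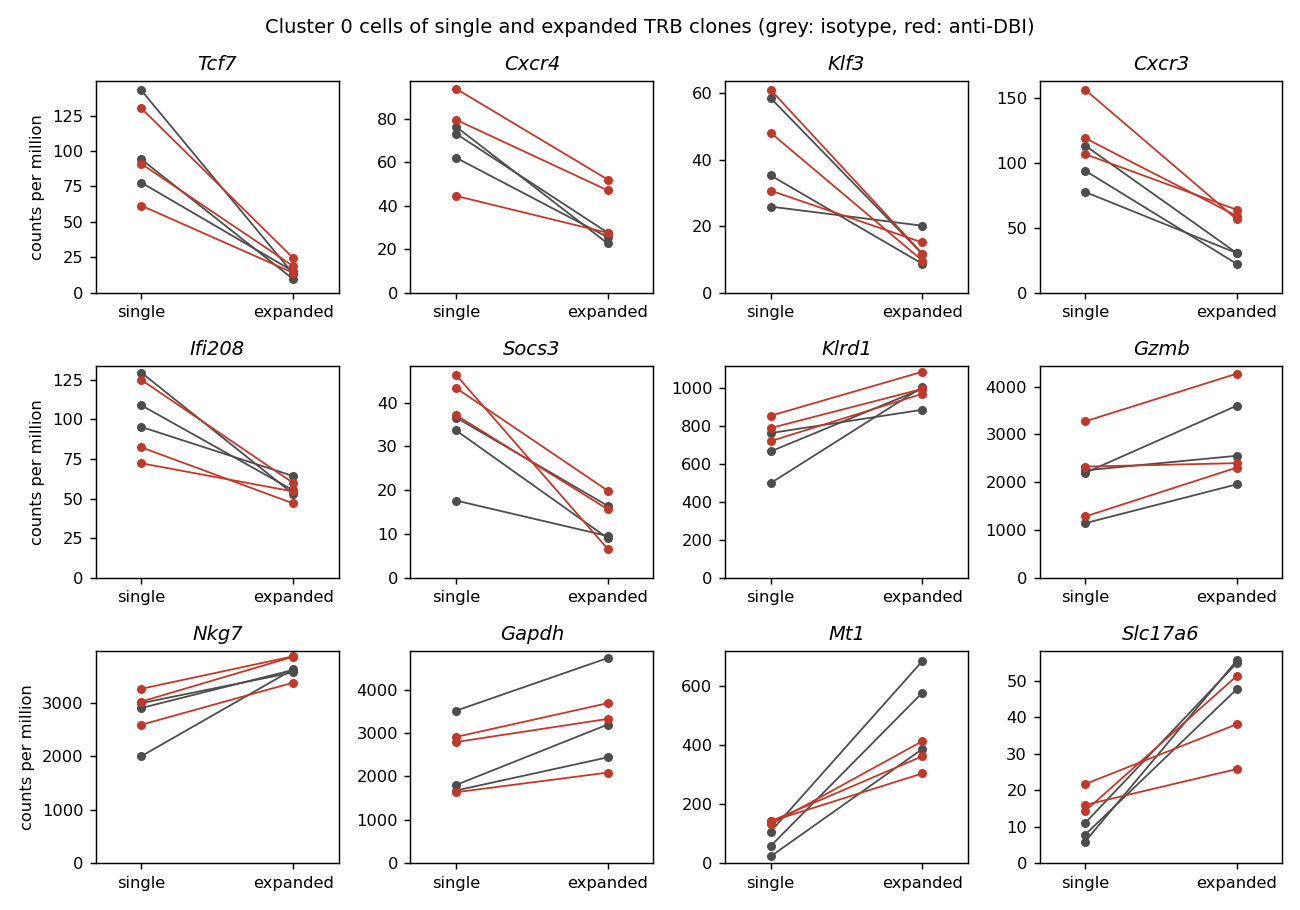
CPM of 12 genes in cluster 0 cells of single and of expanded TRB clones, with a line joining both values of a library (grey isotype, red anti-DBI) and each y axis starting at 0. Tcf7, Cxcr4, Klf3, Cxcr3, Ifi208 and Socs3 fell and Klrd1, Gzmb, Nkg7, Gapdh, Mt1 and Slc17a6 rose in each library from single to expanded.

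Between the antibody groups, cluster 0 cells of anti-DBI mice had more transcripts of Klf4, Fosb and S1pr1 and fewer of Ankrd37, Prdm1 and Hk2. Of 10809 tested genes, 129 had an edgeR adjusted p under 0.05 (1.19%), 74 higher (0.685%) and 55 lower (0.509%) with anti-DBI. In all 129 the groups did not overlap, as they did not in 22.1% of all tested genes. The p-values measure the spread between 3 mice per group. Without isotype 3 or without anti-DBI 2, 7 of the 129 still passed. Without isotype 3 all 7 were lower with anti-DBI, and without anti-DBI 2, 1 was higher and 6 were lower. The increases of Klf4, Fosb and S1pr1 thus did not pass without isotype 3 (edgeR adjusted p = 0.176, 0.058 and 0.163). Of the 129, 21 passed without anti-DBI 1, 43 without anti-DBI 3, 109 without isotype 2 and 110 without isotype 1. Over all tested genes, 27 passed without anti-DBI 1, 91 without anti-DBI 3, 208 without isotype 2 and 345 without isotype 1. All 129 kept their direction in each of these. Of the genes named here, Abhd18, Ddit4, Fosl2, Hk2, Prdm1 and Tmem273 passed whichever library was left out.

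Klf4, a transcription factor of quiescence, rose most among the genes of at least 10 CPM. It was at 3.58, 0.774 and 2.84 CPM in isotype 1, 2 and 3 and at 10.6, 11.2 and 13.6 CPM in anti-DBI 1, 2 and 3, which is 2.10 ± 0.34 as log2 fold change (SE; edgeR adjusted p = 0.0328). Fosb, which encodes a partner in AP-1 dimers, was at 15.2, 9.75 and 12.5 CPM in isotype and 35.9, 47.4 and 49.2 CPM in anti-DBI libraries (1.73 ± 0.17 SE; edgeR adjusted p = 0.00335). For both genes every anti-DBI library lay far above the highest isotype library. S1pr1, the receptor by which T cells leave tissue, was at 9.25, 13.3 and 14.97 CPM in isotype and 32.7, 45.6 and 26.2 CPM in anti-DBI libraries (1.47 ± 0.24 SE; edgeR adjusted p = 0.0401). Cxcr3 was at 32.7, 43.0 and 29.0 CPM in isotype and 66.3, 71.1 and 67.8 CPM in anti-DBI libraries (0.94 ± 0.12 SE; edgeR adjusted p = 0.0106). The other large increases were those of Emb, an adhesion protein (1.19), Hexim1, an inhibitor of transcription elongation (1.08), Cpm, a carboxypeptidase gene (1.07), Ralgds (1.06), Txnip, an inhibitor of glucose uptake (0.99), and Pqlc1 (0.95).

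Among the decreases, Ankrd37, a gene induced by hypoxia, was at 115, 53.6 and 113 CPM in isotype 1, 2 and 3 and at 16.4, 10.3 and 15.5 CPM in anti-DBI 1, 2 and 3 (-2.77 ± 0.36 SE; edgeR adjusted p = 0.0401). Prdm1, which encodes the transcription factor Blimp-1, was at 47.6, 70.3 and 53.7 CPM in isotype and 20.02, 19.5 and 23.5 CPM in anti-DBI libraries (-1.46 ± 0.14 SE; edgeR adjusted p = 0.00200). Hk2, which encodes a hexokinase of the first step of glycolysis, was at 39.2, 49.4 and 50.8 CPM in isotype and 19.1, 20.02 and 19.8 CPM in anti-DBI libraries (-1.27 ± 0.11 SE; edgeR adjusted p = 0.00165). No anti-DBI library reached the lowest isotype library for these 3 genes, and isotype 2 was lowest of its group for Ankrd37 and highest for Prdm1. Ddit4, an inhibitor of the growth regulator mTORC1, was at 247, 312 and 372 CPM in isotype and 122, 110 and 109 CPM in anti-DBI libraries (-1.48 ± 0.14 SE; edgeR adjusted p = 0.00317). Ppp1r3b, a regulator of glycogen synthesis (-1.87), Tmem273 (-1.66), Hilpda, a lipid droplet protein (-1.50), Abhd18 (-1.46), Pdxp (-1.33) and the kinase gene Pim3 (-1.06) were the other large decreases.

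**Figure D4:**
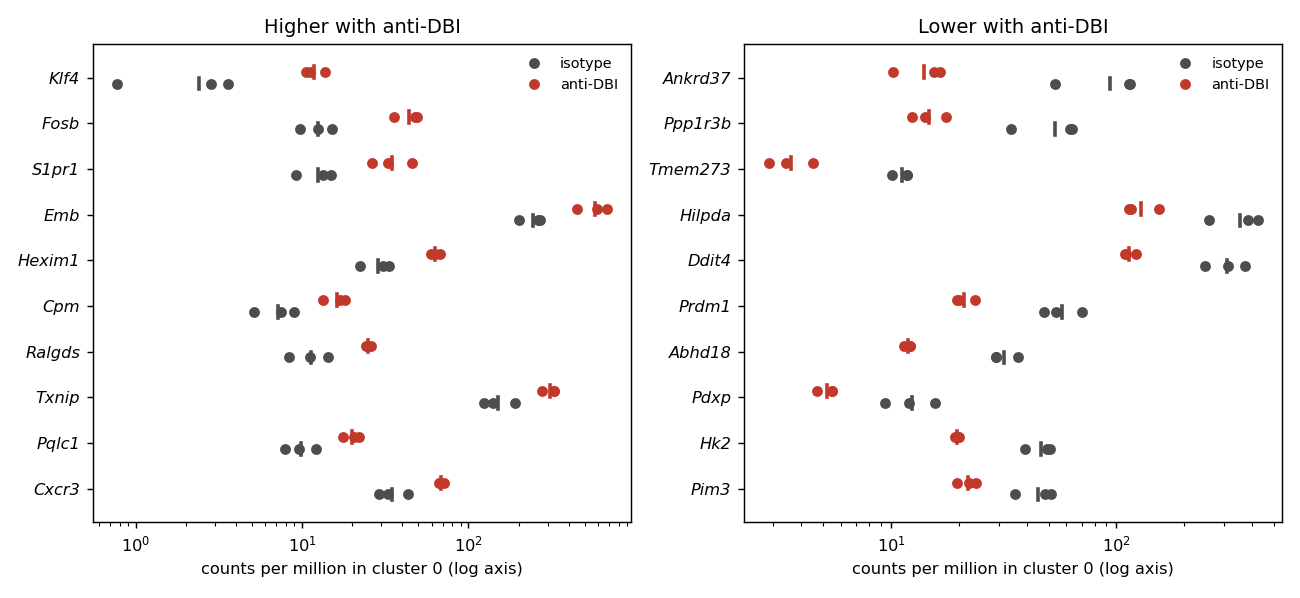
CPM in cluster 0 on log axes for the 10 genes with the largest increase (left) and decrease (right) with anti-DBI, where each point is 1 library and each short line a group mean. In all 20 genes the isotype (grey) and anti-DBI (red) points do not overlap.

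By gene group, the largest numbers of members that fell with anti-DBI belonged to glycolysis and hypoxia and to the cell cycle. Of 37 tested glycolysis and hypoxia genes, 6 fell (Ankrd37, Ddit4, Hilpda, Hk2, Pdk1 at -0.75 and the glucose transporter gene Slc2a1 at -1.06), and 31 did not pass. Over the list the median was -0.36 (log2), against 0.00 over all genes tested. Of 49 cell cycle genes, 5 fell and 44 did not pass, with a median of -0.38. These were Top2a (-0.61), a topoisomerase of dividing cells, Ccnb2 (-0.90), Ccne1 (-0.93), Ube2c (-0.92) and the tubulin gene Tubb5 (-0.62). The share of cells called in G2 or M moved with the groups, at 5.18, 5.56 and 6.55% in isotype and 3.50, 2.40 and 2.70% in anti-DBI libraries. The share in S phase overlapped, at 14.9, 25.6 and 26.5% in isotype and 14.9, 17.5 and 16.2% in anti-DBI libraries. In G1 cells alone Ube2c (-0.99) and Tubb5 (-0.60) still passed, while S1pr1 was at 1.32 (edgeR adjusted p = 0.140), Top2a at -0.35 (edgeR adjusted p = 0.214) and Ccnb2 at -0.83 (edgeR adjusted p = 0.221). Phase calls depend on depth, and the part of the 2 shallower isotype libraries in them was not tested.

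Smaller numbers passed in the other groups, beside 1.19% of all tested genes (0.685% higher and 0.509% lower with anti-DBI). Where 1 member passed, this is a result about that gene and not about its list. Among 33 early activation and AP-1 genes, Fosb, Batf (0.69) and Egr1 (0.83) rose and Fosl2 (-1.03) fell, with 29 that did not pass. Of 20 progenitor and memory genes, Cxcr3 and Id3 rose. Id3, a transcription factor of memory cells, averaged 0.802 ± 0.451 CPM with the isotype antibody and 3.43 ± 0.491 CPM with anti-DBI (SD, n = 3). S1pr1 and the integrin gene Itgb7 (0.69) rose among 12 tissue exit and homing genes. Of 20 exhaustion and inhibitory receptor genes, Cd244a (-0.92) and Rgs16 (-0.87) fell. Klre1 (-0.51) was the member that fell among 11 lectin receptor genes, Samd9l (-0.57) among 41 type I interferon genes and Prdm1 among 25 cytotoxic genes. Fas, a death receptor (0.56), rose among 23 genes of the p53 response. The 24 tested genes of fatty acid and acyl-CoA metabolism, in which the ACBP protein acts as a carrier, did not pass with edgeR or DESeq2, with 4 at an unadjusted edgeR p under 0.05 and a median of -0.0048. Nor did the 12 tested genes of CD8 T cell identity, with 3 at an unadjusted edgeR p under 0.05. None of 29 genes induced by interferon-gamma passed with edgeR, against 10 at an unadjusted p under 0.05 and 2 (Gbp8 and Socs1) with DESeq2. With DESeq2, 12 of the 37 glycolysis and hypoxia genes and 8 of the 49 cell cycle genes passed. Over 13 markers of dendritic cells the summed level was 33.4 to 69.9 CPM in isotype and 68.1 to 116 CPM in anti-DBI libraries, and the groups overlapped. Of these, 5 were above 1 CPM and Flt3, Clec9a and Siglech were at 0. The 6 that were tested were all higher with anti-DBI, with a median log2 fold change of 0.81 against 0.00 over all genes tested. None of them passed with edgeR, with 1 at an unadjusted p under 0.05, and 1 (Itgax) passed with DESeq2. Itgax was higher in cluster 6, a CD8 cluster, than in cluster 0 (43.7 against 12.4 CPM), so it cannot be assigned to dendritic cells alone. The part of these 13 markers in the results was not tested.

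None of the 6 marker genes of cluster 0 passed the antibody comparison with edgeR at an adjusted p under 0.05. Ccl5 was at 4069, 3570 and 3102 CPM in isotype 1, 2 and 3 and at 6472, 4614 and 5986 CPM in anti-DBI 1, 2 and 3, and the groups did not overlap, but it did not pass (0.63 ± 0.15 SE; edgeR adjusted p = 0.101). It passed with DESeq2 (adjusted p = 0.00135), in G1 cells alone (0.59, edgeR adjusted p = 0.0469) and in the fit with the replicate number as a block (edgeR adjusted p = 0.0149). Gzmk was at 222, 200 and 142 CPM in isotype and 65.0, 107 and 174 CPM in anti-DBI libraries, which overlapped (-0.75 ± 0.36 SE; edgeR adjusted p = 0.386). Cd8a (-0.16), Cd8b1 (0.02), Ly6c2 (0.03) and Klrd1 (0.05) did not pass. Neither did Gzma (0.86 ± 0.34 SE), Gzmb (0.10 ± 0.33), Prf1 (0.00 ± 0.26), Ifng (-0.44 ± 0.38), Pdcd1 (-0.13 ± 0.10), Havcr2 (0.05 ± 0.13), Lag3 (-0.05 ± 0.07) or Tcf7 (0.50 ± 0.26). Without anti-DBI 3, Gzma was at 1.17 and passed (edgeR adjusted p = 0.0175). Tox, a transcription factor of exhaustion, was at -1.17 ± 0.36 (SE; edgeR adjusted p = 0.194) and Mki67, a marker of division, at -0.68 ± 0.17 (SE; edgeR adjusted p = 0.0797). Both passed with DESeq2 (adjusted p = 0.00241 and 0.0124). Dbi itself, whose protein the antibody binds, was at 129, 173 and 176 CPM in isotype and 134, 160 and 141 CPM in anti-DBI libraries (-0.17 ± 0.12 SE; edgeR adjusted p = 0.520).

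Some genes passed in both comparisons within cluster 0. Of the 74 genes higher with anti-DBI, 66 were also tested between expanded and single cells, and 8 (10.8% of the 74) were among the 205 lower in expanded cells (3.9% of those), namely Arl4c, Cxcr3, Emb, Gramd3, Itgb7, S1pr1, Ssh2 and Tgtp2. Of the 55 lower with anti-DBI, 3 (5.45%) were among the 189 higher in expanded cells (1.59%), namely Itgav, Prdm1 and Rbpj. In the same direction, Fam20a was higher in both comparisons (1.35% of the 74 and 0.529% of the 189) and Snhg1 lower in both (1.82% of the 55 and 0.488% of the 205). Among all genes tested between expanded and single cells, 2.11% were higher and 2.29% lower in expanded cells. With only cells of expanded clones, the anti-DBI change of S1pr1 was 1.84 (edgeR adjusted p = 0.0275), of Cxcr3 1.07 (0.0063), of Itgb7 0.69 (0.0275) and of Prdm1 -1.57 (0.000452), while Emb was at 1.16 and did not pass (0.0802). In these cells 76 genes passed, 68 of them among the 129.

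The same antibody comparison in clusters 3 and 6 gave changes in the same direction for most of the genes with the largest changes in cluster 0, of which 20 were tested in cluster 3 and 18 in cluster 6. Prdm1 was at -1.46 in cluster 0, -1.29 in cluster 3 and -1.21 in cluster 6, and Hk2 at -1.27, -1.51 and -0.88. Fosb was at 1.73, 1.15 and 2.44 and Cxcr3 at 0.94, 0.72 and 1.26. Pqlc1 was the exception, at 0.95 in cluster 0 and -0.18 ± 0.40 (SE) in cluster 6. The 3 clusters came from the same 6 libraries.

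**Figure D5:**
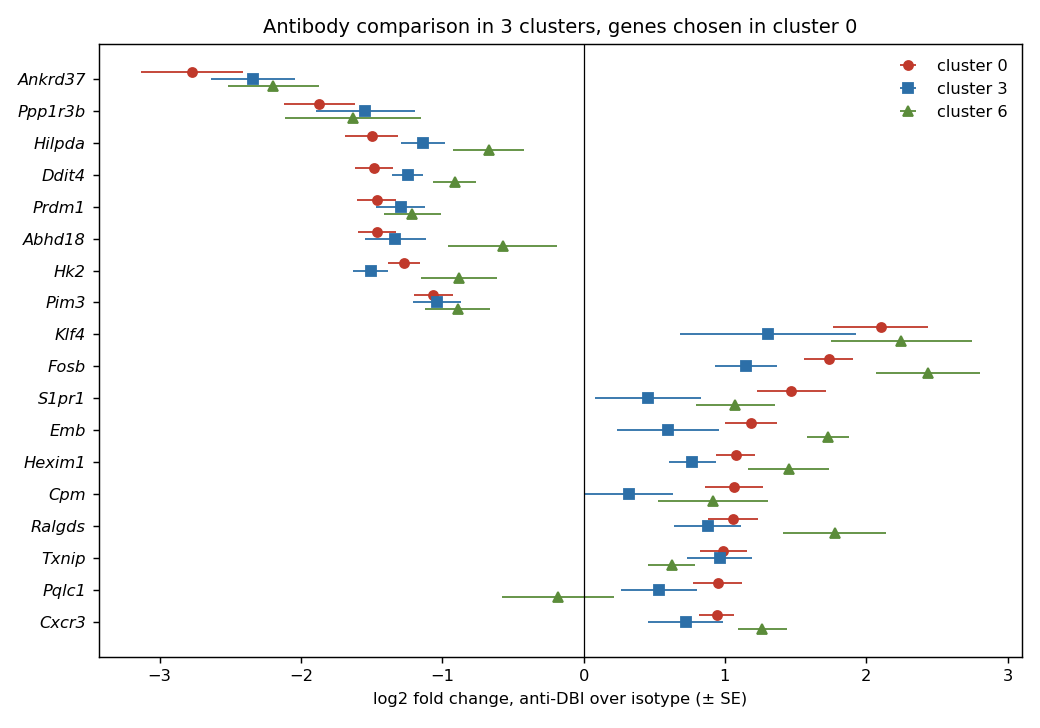
Log2 fold change, anti-DBI over isotype (x axis, ± SE), in clusters 0 (red circles), 3 (blue squares) and 6 (green triangles) for the genes with the largest changes in cluster 0 that were tested in each. Hilpda was at -1.50 in cluster 0, -1.13 in cluster 3 and -0.67 in cluster 6.

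A test of the difference itself was passed by 28 of 10802 genes between clusters 0 and 3 (0.259%) and by 15 of 10363 between clusters 0 and 6 (0.145%), in a fit with the library as a block. A positive difference means that the anti-DBI change was more positive in cluster 0. Itgb1, an integrin chain, was at 147, 173 and 178 CPM in isotype 1, 2 and 3 and at 166, 249 and 156 CPM in anti-DBI 1, 2 and 3 in cluster 0. In cluster 3 it was at 139, 137 and 137 CPM in isotype and 88.6, 111 and 93.6 CPM in anti-DBI libraries, where the groups did not overlap (difference 0.69; edgeR adjusted p = 0.00268). Hilpda fell in cluster 0 from 258, 425 and 382 CPM in isotype 1, 2 and 3 to 114, 116 and 154 CPM in anti-DBI 1, 2 and 3. In cluster 6 it was at 170, 374 and 269 CPM in isotype and 157, 168 and 176 CPM in anti-DBI libraries (difference -0.87; edgeR adjusted p = 0.000170). Ifng, the gene of interferon-gamma, was at -0.44 ± 0.38 in cluster 0 and 0.44 ± 0.30 in cluster 6 (SE; difference -0.87, edgeR adjusted p = 0.00530), and passed in neither cluster alone. DESeq2 gave 6 and 7 genes for these 2 tests.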

How the data were processed

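Values are UMI counts per gene and cell, which the authors deposited as filtered matrices with a table of clusters and phases and a table of receptor contigs. The submitters' processing notes name Cell Ranger 7.0.0, Seurat and the build mm10. No label or header used here records how the clusters were made. Counts of cluster 0 cells were summed per library, and the receptor segment genes were left out. No doublet caller was run. The deposited table has a flag DF1, whose meaning no label gives and whose name may point to a doublet call, and 158 cluster 0 cells flagged FALSE were kept. Alternatives left out those cells, and cells with several beta chains.

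Sums were compared with edgeR 4.0.16 (quasi-likelihood test, TMM, filterByExpr, Benjamini-Hochberg threshold 0.05) in R 4.3.3, with DESeq2 1.42.0 as an alternative. Each group is 3 libraries, 1 per mouse, so p-values measure the spread between these mice. Receptor shares were compared with exact permutation tests in scipy 1.17.1. The code was tested on simulated data. SE is the fold change over the root of the test statistic, and CPM are per library.

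Named genes were fixed markers, the 10 largest changes per direction among genes that passed, reached 10 CPM in a group and had groups that did not overlap (for clones, 1 sign in all libraries), up to 4 passed members of each list, and up to 5 interactions per direction. Genes named only by a number and mitochondrial genes were left out, and other members of a list's count were named after their values were seen. The members and lists were chosen with earlier results of these data known. Capitals in a receptor sequence are the bases outside the start and end that at least 20% of distinct CDR3s of the same V or J gene share. Some results are not reported here.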

Additional observations from a re-analysis of the deposited data

Results flagged for a closer look

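By an interaction test the anti-DBI change differed between cluster 0 and cluster 3 for 28 genes, of which 10 were named for this test. Values are log2 differences from edgeR, positive where the change was more positive in cluster 0. Itgb1 differed by 0.69 (adjusted p = 0.00268), Tnfaip8l2 by 0.56, Ell2 by 0.65 and Gpr132 by 0.50. On the negative side were Rgs16, an inhibitor of G protein signalling (-0.37), the lymphocyte GTPase genes Gimap7 (-0.45) and Gimap9 (-0.52), and Chchd10 (-0.55). The other two rest on few molecules. Rln3 differed by 4.18, with 9, 0 and 0 UMIs in cluster 0 of isotype 1, 2 and 3 and 26, 6 and 22 in anti-DBI 1, 2 and 3. Il5, an interleukin gene, differed by -6.77, and 162 of its cluster 0 UMIs were in isotype 1, against 0 to 7 in each other library. Without isotype 1 its difference was -1.99 (edgeR adjusted p = 0.936). Of genes named for other comparisons, Hilpda (-0.35, edgeR adjusted p = 0.0290) and Tcf7 (1.55, edgeR adjusted p = 0.0432) also passed this test. Tcf7 had 4 to 35 UMIs per library in cluster 3.

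Between cluster 0 and cluster 6 the change differed for 6 named genes. These were Hilpda (-0.87, adjusted p = 0.000170), Ifng (-0.87), Pglyrp1, a peptidoglycan binding protein (-0.64), Vim, the gene of vimentin (-0.33), S100a6 (-0.33) and Tef, a transcription factor (2.36). Tef had 2 to 12 UMIs per library in cluster 6 and did not pass when any 1 library was left out, with edgeR adjusted p from 0.0672 to 0.219. Hilpda passed without each library in turn.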

How the results depend on the processing

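The antibody comparison in cluster 0 gave 129 genes, and 299 with DESeq2, 387 with no filter on low counts, 7 to 345 when 1 library was left out, 71 without the 10 largest clones of each library 113 in cells with the table's DF1 flag TRUE (where Rgs16 was at -0.89, edgeR adjusted p = 0.0527) and 76 in cells of expanded clones only, an alternative chosen after seeing the data. The replicate block gave 307 genes. With it the share in expanded clones differed by -8.32 points, anti-DBI minus isotype (exact sign-flip permutation p = 0.25, the smallest that 3 pairs allow). The sharing chance differed by -0.455 points (exact sign-flip permutation p = 0.75). Same-numbered libraries correlated at 0.267, 0.0373 and -0.0983 in their deviations from the group means, so the numbers were not taken to pair mice. The interaction with cluster 3 gave 28 genes, 6 with DESeq2, 111 with no filter and 10 to 36 with 1 library left out, lowest without isotype 1. That with cluster 6 gave 15, then 7, 63 and 6 to 24, lowest without anti-DBI 1. Expanded against single gave 394 genes, 260 with DESeq2, 226 in G1 cells and, added after seeing the data, 237 in cells with 1 alpha and 1 beta chain.

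Of the 28 genes of the interaction with cluster 3, 27 kept their direction and 5 still passed without isotype 1. The other signs that turned belonged to values that had not passed. In G1 cells the antibody changes were -0.028 for Cd8b1, -0.027 for Ly6c2, -0.0012 for Klrd1, -0.033 for Prf1 and -0.0015 for Havcr2. In expanded clones alone Cd8b1 was at -0.0078, Ly6c2 at -0.054 and Prf1 at -0.036, and without the 10 largest clones Ly6c2 was at -0.024. With 1 library left out, Cd8b1 ran from -0.011 to 0.040, Ly6c2 from -0.15 to 0.22, Gzmb from -0.26 to 0.35, Prf1 from -0.23 to 0.22 and Havcr2 from -0.072 to 0.16, all lowest without anti-DBI 1. Prf1 was also at -0.0049 with DESeq2, -0.0030 with RLE, -0.013 with the replicate block and -0.0083 without cells of several beta chains. Between expanded and single cells, Gzma was at 0.31 with DESeq2 and ran from -0.97 to 0.40 with 1 library left out, and Ifng from -0.033 to 0.77. The expansion difference to cluster 6 was 0.384 points at a minimum of 2 cells and 0.152 at 10. With 1 library left out the sharing chance differed by -1.76 to 0.320 points, and by 0.0786 without anti-DBI 3. The overlap difference then ran from -0.0220 (without isotype 2) to 0.0599, and was -0.00539 with alpha chains added. The cause was not tested. Single cells, at 39 to 90 per library, limit the precision of the clone comparison.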
